A study of Homo sapiens with 8 samples.

Results

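Transcript levels and H3K27 acetylation were examined for 7 ATP-binding cassette (ABC) transporters that export drugs from cells, ABCB1, ABCC1, ABCC2, ABCC3, ABCC4, ABCC5 and ABCG2, in ALK inhibitor-resistant lung cancer lines. The genes were taken by symbol from GENCODE and matched by Ensembl identifier to the 43841 genes of the deposited table, and all 7 were found there. H3K27ac, acetylation of histone H3 at lysine 27, marks active promoters and enhancers, and its peaks were assigned to a gene when they lay at most 20 kb from it. The 7 genes had 166 such peaks among 126470.

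ABC transporters use ATP hydrolysis to move substrates across membranes, and several of them carry cancer drugs out of the cell. ABCB1 (P-glycoprotein) and ABCG2 (breast cancer resistance protein) export many unconjugated drugs, including kinase inhibitors. The ABCC members are multidrug resistance-associated proteins, which mainly export organic anions and conjugates with glutathione, glucuronate or sulphate, and ABCC4 and ABCC5 also export cyclic nucleotides. Raised efflux is a textbook route by which tumour cells come to tolerate drugs, and whether these genes differed between the resistant lines and the parental cells is the question addressed here.

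All 4 lines are H3122, a human lung adenocarcinoma line driven by the EML4-ALK fusion. The naive line had not been treated, and erCriz0, erAlec0 and erLor0 had been derived from it under stepwise escalation of an ALK inhibitor, with crizotinib at 0.5 µM for erCriz0, alectinib at 2 µM for erAlec0 and lorlatinib at 2 µM for erLor0. RNA was collected after 48 h without inhibitor, and whether the cells for ChIP-seq had also been kept off drug is not given in the sources used here. Each line is 1 evolved population with 1 RNA-seq and 1 H3K27ac ChIP-seq library, and there is therefore no replicate error and no test for any difference between lines.

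Values are rlog values, a log2 of normalised reads that is drawn toward the mean of the feature where reads are few. Changes were taken as resistant minus naive rlog, all 3 comparisons share the naive library, and a change of at least 1 is called a rise or a fall, a limit that the study set for genes and that was applied here to peaks as well. Read totals cannot be recovered from rlog values, so the depth is unknown and no counting error can be given. Of 8 lung epithelial markers 7 reached the RNA minimum of 25 normalised reads (4.64 on the log2 scale), at 8.67 to 15.2, and NAPSA did not. None of 4 immune markers and none of 4 fibroblast markers reached it, PTPRC was listed at 0, and of 3 endothelial markers CDH5 reached it, at 4.10 in naive cells and 4.28, 5.78 and 5.64 in erCriz0, erAlec0 and erLor0. In log2 of the summed level the epithelial list ranged from 16.00 to 16.53 over the lines and the endothelial list from 4.26 to 5.83. The part of these differences in the results below was not tested. In such bulk samples fewer cells that express a gene and less RNA per cell cannot be told apart.

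RefSeq promoter windows (GRCh38.p14) were found for 5 of the 7 genes, and ABCC1 and ABCC3 had no entry. The 250 bases before the canonical start are shown for ABCG2 and ABCC5, the genes with the highest peak rises, and for ABCB1, whose start carried no peak and whose RNA was listed at 0. They lie at chr4:88158640-88158889, chr3:184017885-184018134 and chr7:87600885-87601134, all on the minus strand, and are given 5′ to 3′ along the gene with motif matches on either strand in capitals.
ABCG2: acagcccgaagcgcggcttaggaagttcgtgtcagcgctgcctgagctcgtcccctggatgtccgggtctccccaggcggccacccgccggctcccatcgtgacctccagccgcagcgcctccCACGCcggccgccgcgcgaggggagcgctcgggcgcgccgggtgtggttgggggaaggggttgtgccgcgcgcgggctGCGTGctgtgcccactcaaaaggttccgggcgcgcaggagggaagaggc
ABCC5: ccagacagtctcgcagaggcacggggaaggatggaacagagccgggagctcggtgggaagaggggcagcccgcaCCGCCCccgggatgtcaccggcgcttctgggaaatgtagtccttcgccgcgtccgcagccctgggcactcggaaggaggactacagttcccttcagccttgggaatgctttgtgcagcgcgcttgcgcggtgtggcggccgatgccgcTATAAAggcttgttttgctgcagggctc
ABCB1: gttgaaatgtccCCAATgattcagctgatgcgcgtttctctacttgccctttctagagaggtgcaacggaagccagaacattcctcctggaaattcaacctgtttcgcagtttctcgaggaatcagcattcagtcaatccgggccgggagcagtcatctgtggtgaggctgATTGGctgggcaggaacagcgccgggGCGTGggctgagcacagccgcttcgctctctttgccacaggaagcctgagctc
Short motifs were searched on both strands of 35116 windows of this length. The letters GGGCGG, known as a GC box, occurred in 42.6% of them. The letters CCAAT, bound by the NF-Y complex, occurred in 32%. The letters TATAAA, known as the TATA box, occurred in 10.7%. The antioxidant response element core TGACNNNGC occurred in 10.9%. The aryl hydrocarbon receptor element core GCGTG occurred in 32.2%, and the hypoxia response element core ACGTG in 18.5%. The ABCG2 window held the receptor element core at -49 and, on the opposite strand, at -127. The ABCC5 window held the TATA box letters at -28 and those of the GC box at -176 on the opposite strand. The ABCB1 window held CCAAT at -238 and, on the opposite strand, at -79, and the receptor element core at -53. Positions count back from the start and give the end of the match farther from it. In no pair did the marked motifs overlap in these windows. The windows differed in base composition, with 73.6% G and C in ABCG2, 64.8% in ABCC5 and 55.6% in ABCB1. Such matches describe letters in the windows and do not show that a factor bound there.

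No RNA rise or fall of 1 was found among the 7 transporters in any resistant line, but ABCB1, listed at 0 throughout, could show none. Over the 12700 genes at the RNA minimum in at least 1 library, 2.65% rose and 1.65% fell in erCriz0. The shares were 2.45% and 2.07% in erAlec0, and 1.1% and 0.74% in erLor0. Of the 7, 5 reached the minimum (ABCC1, ABCC3, ABCC4, ABCC5 and ABCG2). At the shares given above, the lack of a call among 5 genes does not set them apart from all expressed genes. In the order erCriz0, erAlec0 and erLor0 their median changes were -0.43, 0.00 and 0.01, against -0.02, 0.00 and 0.00 over all expressed genes. Over all 7 genes, with ABCB1 entered at 0 and ABCC2 under the minimum, the medians were -0.26, 0.00 and 0.01. The plot of RNA levels shows each gene in the 4 lines.

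**Figure D1:**
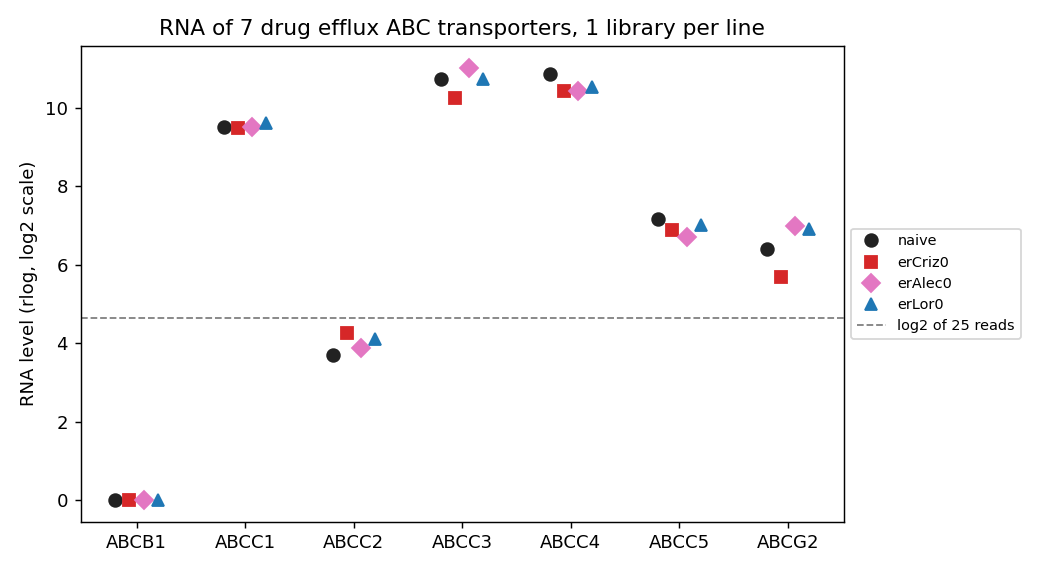
RNA level (rlog, log2 scale) of the 7 transporters in naive, erCriz0, erAlec0 and erLor0 cells, with 1 point per library and a dashed line at log2 of 25 normalised reads. ABCB1 is listed at 0 in every line and ABCC2 stays under the dashed line, while the widest spread between lines is that of ABCG2, from 5.69 in erCriz0 to 6.99 in erAlec0.

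ABCB1 (ENSG00000085563.14, chr7:87503633-87713323, hg38, minus strand), the classical multidrug pump, was listed at an RNA rlog of 0 in all 4 lines, as were 16712 genes in all. No RNA change can therefore be given for it. Its 4 peaks lay in the gene body or upstream, and none covered the canonical start. The peak with the largest rise, at chr7:87628299-87629345, 27.4 to 28.5 kb upstream of that start and within the annotated gene, had an H3K27ac rlog of 5.0 in naive cells and 6.07, 5.71 and 6.40 in erCriz0, erAlec0 and erLor0. All 3 resistant lines were above naive there, by 1.07, 0.70 and 1.40. This peak is also within 20 kb of RUNDC3B, whose RNA lay at 3.89, 4.19, 3.97 and 4.22, under the minimum. The peak lowest against naive at ABCB1, chr7:87505789-87506005, changed by -0.85, -0.26 and -0.58, and the longest, chr7:87732111-87733877, by 0.78, 0.66 and 0.11.

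ABCG2 (ENSG00000118777.12, chr4:88090150-88231628, minus strand), the other broad drug exporter, had the widest RNA differences among the 7 genes. Its RNA rlog was 6.39 in naive cells and 5.69, 6.99 and 6.91 in erCriz0, erAlec0 and erLor0. It was thus lower than naive in erCriz0, by 0.70, and higher in erAlec0 and erLor0, by 0.60 and 0.52, and erCriz0 was the lowest library and erAlec0 the highest. Among expressed genes 5.41%, 7.60% and 5.54% had a change at least as far in the same direction in these lines, and none of the 3 changes reached the limit. ABCG2 is also expressed by endothelial cells, and all libraries here are from H3122 cells grown in culture. The endothelial marker CDH5 was higher than naive in the same erAlec0 and erLor0 libraries, as given above, while PECAM1 and VWF stayed under the minimum. The part of these marker levels in the ABCG2 values was not tested.

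H3K27ac at ABCG2 had opposite directions in erCriz0 and erAlec0. Of its 12 peaks, 5 rose and none fell in erAlec0, where 14.1% of all peaks rose and 9.41% fell, and all 12 were above naive, with a median change of 0.93 (all peaks 0.00). In erCriz0 all 12 were below naive, with a median of -0.50, although only 1 passed the limit, and in erLor0 the median was -0.01 with 5 peaks higher and 7 lower. The peaks of a gene share libraries and neighbouring sequence and are not independent of each other. Other peaks within 5 Mb, 354 in number, had medians of -0.19, 0.06 and -0.08 in the order erCriz0, erAlec0 and erLor0, which puts the ABCG2 median in erAlec0 0.87 above its surroundings.

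The peak over the canonical ABCG2 start, chr4:88158231-88159705, which covers the promoter window printed above, stood at an rlog of 5.45 in naive cells and 5.41, 7.74 and 6.42 in erCriz0, erAlec0 and erLor0. It rose by 2.30 in erAlec0, a rise matched or passed by 1.05% of all peaks, was higher by 0.98 in erLor0, just short of the limit, and differed by -0.03 in erCriz0. The longest peak, chr4:88141833-88149179 in an intron 9.46 to 16.8 kb downstream of the start, had rlog values of 7.54, 6.65, 10.12 and 8.44 in naive, erCriz0, erAlec0 and erLor0 cells. It had the largest rise of any of the 166 peaks, 2.58 in erAlec0 (0.48% of all peaks rose as far), while erLor0 was higher by 0.90 and erCriz0 lower by 0.89. Another region, chr4:88177452-88179605, about 19 to 21 kb upstream of the start and inside the annotated gene, stood at 6.30, 5.83, 8.42 and 6.62 and rose by 2.13 in erAlec0. The largest fall was at chr4:88149379-88149915, by 1.28 in erCriz0, where erAlec0 was higher by 0.86. In the long peak near the 3′ end, chr4:88104050-88111037, the change in erAlec0 was 0.998 and was not counted as a rise. The only other gene paired with these upstream and start peaks was the pseudogene RPL31P24, listed at 0.

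**Figure D2:**
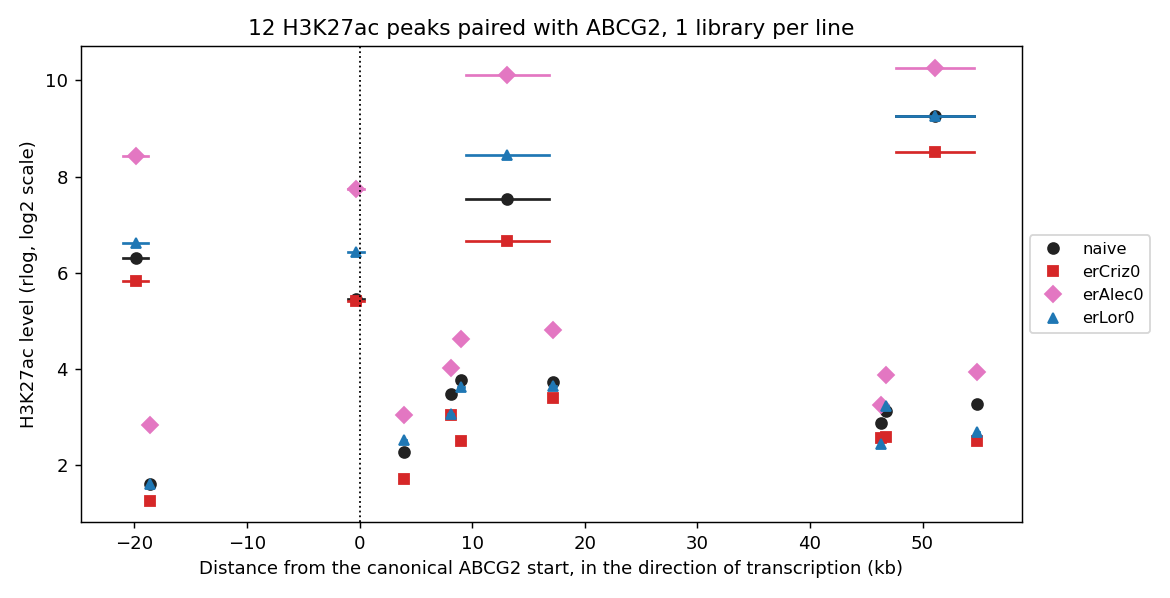
H3K27ac level (rlog, log2 scale) of the 12 ABCG2 peaks against distance from the canonical start in kb along the direction of transcription, with 1 symbol per line and a horizontal bar for the extent of the peak. The erAlec0 symbol is above naive at all 12 peaks and erCriz0 below it at all 12, and at the start peak erAlec0 reached 7.74 against 5.45 in naive.

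ABCC1 (ENSG00000103222.19, chr16:15949577-16143074, plus strand), which exports glutathione conjugates, had nearly equal RNA in all lines, with an rlog of 9.53 in naive cells and 9.49, 9.53 and 9.62 in erCriz0, erAlec0 and erLor0. The range of 0.12 was the smallest of the 5 genes at the minimum. Its H3K27ac was higher in erAlec0, where 6 of 12 peaks rose and none fell, beside 14.1% and 9.41% of all peaks. The median change was 0.94 there, against -0.02 in erCriz0 and -0.01 in erLor0. Surrounding peaks had a median of 0.04 in erAlec0. No peak covered the canonical start, but one began 0.20 kb downstream of it, chr16:15949819-15950837, with rlog values of 5.28, 6.02, 6.65 and 6.50 in naive, erCriz0, erAlec0 and erLor0. It rose in erAlec0 (1.37) and erLor0 (1.21) and was higher by 0.74 in erCriz0. The peak on the other side, chr16:15948545-15949530, ended 0.086 kb upstream of the canonical start. Its changes were 0.42, 0.79 and 0.61 in erCriz0, erAlec0 and erLor0, and no line passed the limit. The longest peak, chr16:16074086-16076255, lies over another annotated ABCC1 start 124 kb into the gene, and stood at 5.51, 5.30, 7.31 and 5.29. Only the erAlec0 library stood apart there, with a rise of 1.80. Of the other 4 peaks that rose in erAlec0, 3 lie 4.44 to 5.38 kb beyond the ABCC1 end and are also paired with ABCC6, whose RNA was under the minimum in all lines (2.95, 2.99, 3.53 and 3.25). The lowest ABCC1 value against naive, -0.43 in erLor0, was at one of these, chr16:16148455-16148678.

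ABCC2 (ENSG00000023839.12, chr10:99782640-99852594, plus strand), which exports conjugates into bile, stayed under the RNA minimum, at an rlog of 3.70 in naive cells and 4.25, 3.89 and 4.12 in erCriz0, erAlec0 and erLor0. Its start lay under a strong peak of 7262 bp, chr10:99776030-99783291, at 9.72, 9.34, 9.94 and 9.22, which reaches from 6.61 kb upstream to 0.65 kb downstream of the start. This peak is also paired with CUTC, whose RNA was 6.50, 6.42, 6.38 and 6.33, and its changes were -0.38, 0.21 and -0.51. Of 12 ABCC2 peaks 5 reached the peak minimum of 15 normalised reads. Only 1 of the 12 passed the limit, falling by 1.06 in erCriz0 (chr10:99774668-99774885, outside the gene), where 5.94% of all peaks fell. That peak was under the peak minimum, at 3.37 in naive cells and 2.31 in erCriz0. The largest increase, 0.59 in erCriz0, was at chr10:99871767-99872450, 19.2 kb beyond the gene, where erAlec0 and erLor0 were lower by 0.89 and 0.85.

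ABCC3 (ENSG00000108846.16, chr17:50634777-50692253, plus strand), an exporter of glucuronides on the basolateral membrane, had an RNA rlog of 10.73 in naive cells and 10.25, 11.03 and 10.75 in erCriz0, erAlec0 and erLor0. The naive and erLor0 libraries were close to each other, erCriz0 was lower by 0.48 and erAlec0 higher by 0.30. Most of its peaks were below naive in every resistant line, numbering 33 (erCriz0), 35 (erAlec0) and 34 (erLor0) of 40, with medians of -0.67, -0.57 and -0.67. Other peaks within 5 Mb had medians of 0.18, 0.14 and 0.13. Few of these differences passed the limit, with no rise and falls at 5, 3 and 1 peaks. These are 12.5%, 7.5% and 2.5% of the 40, against 5.94%, 9.41% and 8.82% of all peaks, so the share was above that of all peaks in erCriz0 and below it in the other lines. The 40 peaks were of unequal size. The 2 largest, over the start (chr17:50630638-50643778) and at the 3′ end (chr17:50681458-50695200), were lower by 0.29, 0.40 and 0.33 and by 0.44, 0.17 and 0.07. In the start peak the rlog was 11.61 in naive cells and 11.32, 11.21 and 11.28 in erCriz0, erAlec0 and erLor0. The steepest fall was in an intron, chr17:50647793-50649129, where the level was 6.30, 4.73, 4.85 and 5.35 and the changes were -1.57, -1.45 and -0.95. The largest increase, 0.75 in erCriz0, was outside the gene at chr17:50619365-50620061.

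ABCC4 (ENSG00000125257.16, chr13:95019835-95301475, minus strand), which exports cyclic nucleotides and prostaglandins, had an RNA rlog of 10.86 in naive cells and 10.43, 10.44 and 10.53 in erCriz0, erAlec0 and erLor0. All 3 resistant lines were below naive, by 0.43, 0.42 and 0.33, and 15.2%, 14.0% and 12% of expressed genes were lower by as much. It had the most peaks, 66, of which 54 were below naive in erCriz0 with a median of -0.54, against medians of -0.15 in erAlec0 and -0.10 in erLor0. Rises and falls were few, with 1 and 6 in erCriz0, 0 and 2 for erAlec0, and 1 of each for erLor0. Falls thus made up 9.09%, 3.03% and 1.52% of its peaks, against 5.94%, 9.41% and 8.82% of all peaks. Its rises made up 1.52%, 0% and 1.52%, against 7%, 14.1% and 7.45%. The peak over the start, chr13:95290904-95302420, differed from naive by 0.12, 0.29 and 0.14. The longest of all 166 peaks, 30783 bp at chr13:95095933-95126715, had levels of 12.65, 12.91, 11.89 and 12.68, with erAlec0 the lowest of the 4, 0.77 below naive. Next to it, chr13:95094372-95095852 held the steepest fall, with changes of -0.95, -1.33 and -1.03. The largest rise was outside the gene at chr13:95000786-95006780 (0.84, 0.63 and 1.38), and at the 3′ end the peak at chr13:95019367-95023918 rose by 1.21 in erCriz0 but was lower by 0.91 in erAlec0. The smallest change counted as a fall was also at ABCC4, -1.0 in erAlec0 at chr13:95135558-95139160.

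ABCC5 (ENSG00000114770.17, chr3:183919934-184017939, minus strand), an exporter of cyclic nucleotides and nucleotide analogues, had RNA below naive in each resistant line, at 7.16 in naive cells and 6.90, 6.70 and 7.01 in erCriz0, erAlec0 and erLor0. The changes were -0.26, -0.46 and -0.15. Its H3K27ac was higher in erAlec0, where 6 of 20 peaks rose and none fell, beside 14.1% and 9.41% of all peaks. The median change was 0.67 in that line, while the medians were -0.24 in erCriz0 and 0.21 in erLor0. The ABCC5 median in erAlec0 was 0.55 above that of surrounding peaks.

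The rises at ABCC5 lay within the gene and not over its start. The start peak, chr3:184016836-184018501, which covers the ABCC5 window shown above, stood at 7.47 in naive cells and 7.91, 8.03 and 7.68 in erCriz0, erAlec0 and erLor0, and no line passed the limit. An intron peak 25 to 27.9 kb downstream of the start, chr3:183989997-183992834, stood at 5.53, 5.46, 7.95 and 7.39. It rose by 2.42 in erAlec0 and by 1.86 in erLor0, which 0.76% and 0.61% of all peaks matched or passed, and was near naive in erCriz0. The longest peak, chr3:184008363-184014139, stood at 7.44, 6.39, 9.38 and 8.33, and here erCriz0 fell by 1.06 while erAlec0 rose by 1.93 and erLor0 was higher by 0.88. Its neighbour chr3:184003228-184008187 changed by -0.88, 1.71 and 0.88, and chr3:183965813-183969654 by 0.34, 1.66 and 1.22. Several of these peaks are also paired with ABCC5-AS1, which was listed at 0 in all lines.

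**Figure D3:**
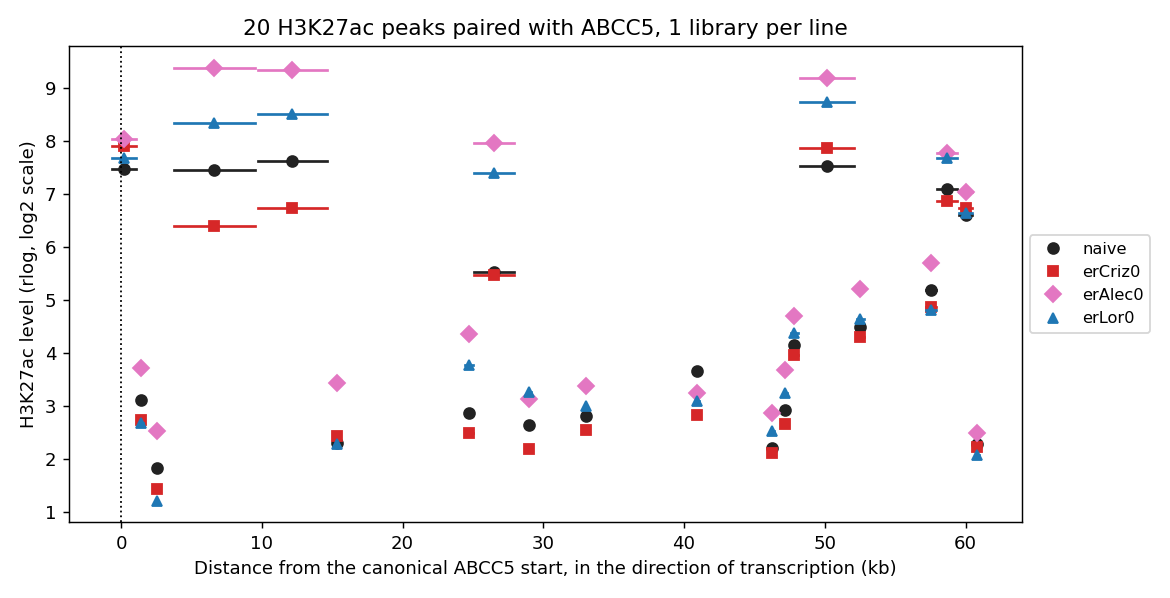
H3K27ac level (rlog, log2 scale) of the 20 ABCC5 peaks against distance from the canonical start in kb along the direction of transcription, with 1 symbol per line and a bar for the extent of the peak. The 4 lines lie close together over the start, from 7.47 to 8.03, and spread widely in the peaks within the gene, where erAlec0 reached 9.38 against 7.44 in naive.

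Compared per length, as rlog minus log2 of the exon length in kb, ABCC4, ABCC3 and ABCC1 were the highest in every line. ABCB1, listed at an RNA rlog of 0, was left out of this ranking. In naive cells ABCC4 was highest at 7.75, followed by ABCC3 at 7.47 and ABCC1 at 6.40, then ABCG2 at 3.91, ABCC5 at 3.65 and ABCC2 at 0.73. ABCC4 and ABCC3 changed places in erAlec0 (7.33 and 7.77) and erLor0 (7.42 and 7.48), and ABCG2 and ABCC5 in erCriz0 (3.20 and 3.39). Without replicates it cannot be said whether such neighbours differ beyond their spread.

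Over the 166 peaks as a whole, rises were not more frequent than over all peaks in any line. In erCriz0 2 member peaks rose (1.20%) and 14 fell (8.43%), where 7% of all peaks rose and 5.94% fell. In erAlec0 17 rose (10.2%) and 5 fell (3.01%), against 14.1% and 9.41%, and in erLor0 5 rose (3.01%) and 2 fell (1.20%), against 7.45% and 8.82%. The 17 rises in erAlec0 were 6 at ABCC1, 6 at ABCC5 and 5 at ABCG2, and the other 4 genes had none. ABCC3 and ABCC4 held the 5 falls in that line. These counts take all 166 peaks, of which 119 reached the peak minimum. Among the 119, 13 rose and 5 fell in erAlec0, 2 rose and 10 fell in erCriz0, and 5 rose and 2 fell in erLor0. The rises under the minimum in erAlec0 were at ABCC1, ABCC5 and ABCG2. Over the 90 peaks paired with a single gene, which leave out those shared with pseudogenes, antisense genes or neighbours, 3 rose in erAlec0 and 7 fell in erCriz0. Over all 166 peaks, centring each library on its median changed the falls in erCriz0 from 14 to 8, and in erLor0 the rises from 5 to 8 and the falls from 2 to 0. Quantile normalisation changed the rises in erCriz0 from 2 to 0 and the falls from 5 to 12 in erAlec0 and from 2 to 4 in erLor0. The shares of all peaks were not computed under centring or quantile normalisation, nor for peaks paired with a single gene or at the peak minimum. By place, 5 peaks covered a canonical start, 7 another annotated start, 25 an exon and 99 an intron only, and 30 lay outside the gene. Of the 5 start peaks only that of ABCG2 passed the limit, in erAlec0, where 14.1% of all peaks rose. In that line 10 of the 17 rises were in introns, a share near that of intron peaks among the members, 99 of 166.

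**Figure D4:**
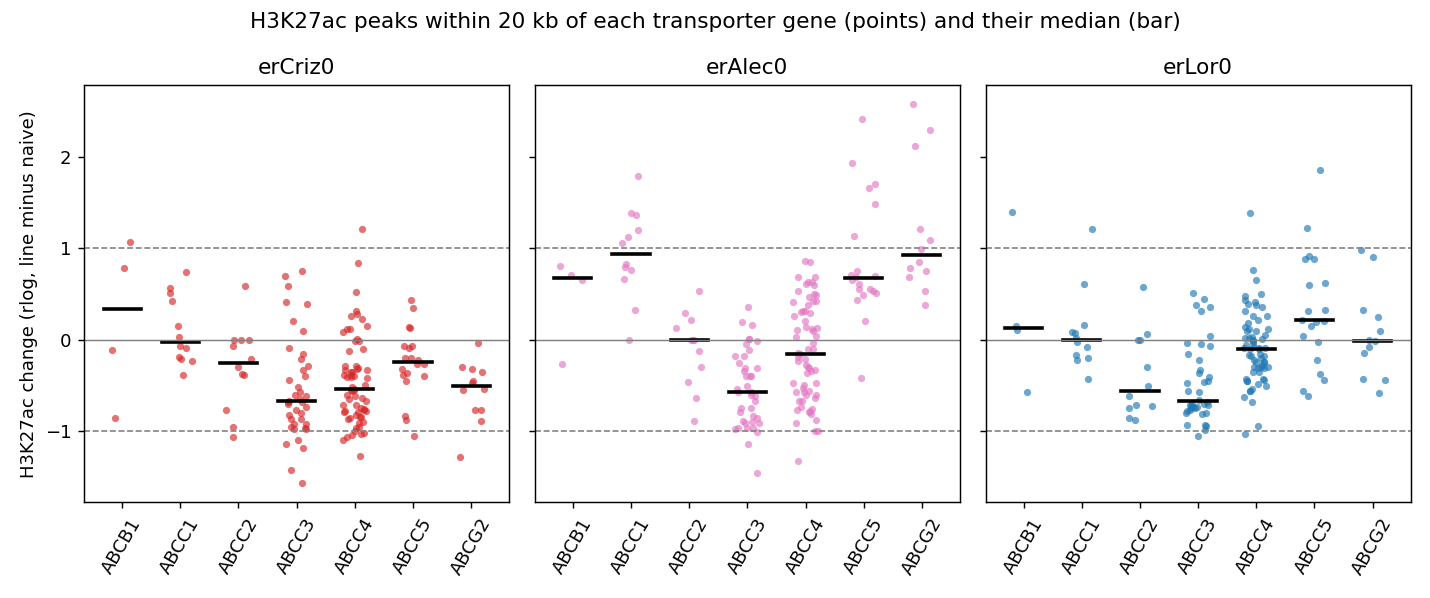
H3K27ac change (rlog, line minus naive) of every peak within 20 kb of each transporter, in a panel per resistant line, with points for peaks, a black bar for the median of a gene and dashed lines at the limits of 1 and -1. In erAlec0 the medians of ABCC1, ABCC5 and ABCG2 are 0.94, 0.67 and 0.93, and in all 3 lines the ABCC3 median lies between -0.67 and -0.57.

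The other ABC genes served as a comparison within the family. Of 41 listed, 39 had a value, ABCD2 and ABCG5 had none, and 23 reached the RNA minimum. Of these 3 rose in erCriz0, where 2.65% of all expressed genes rose, none fell, and none passed the limit in erAlec0 or erLor0. ABCB11, the bile salt export pump, stood at 5.55 in naive cells and 7.27, 5.76 and 5.14 in erCriz0, erAlec0 and erLor0, a rise of 1.72 in erCriz0. ABCA1, which passes cholesterol to apolipoproteins, rose by 1.24 in that line, and TAP1, the peptide transporter of antigen presentation, by 1.02. The largest changes in subfamilies C, E and F together, and G were 0.25 for ABCC10 in erAlec0, and 0.27 for ABCF3 and 0.57 for ABCG1 in erLor0. The 3 genes that rose are in subfamilies A and B. This list leaves out the drug exporters by definition, and only 1 gene of it in subfamily C and 1 in subfamily G reached the minimum.

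**Figure D5:**
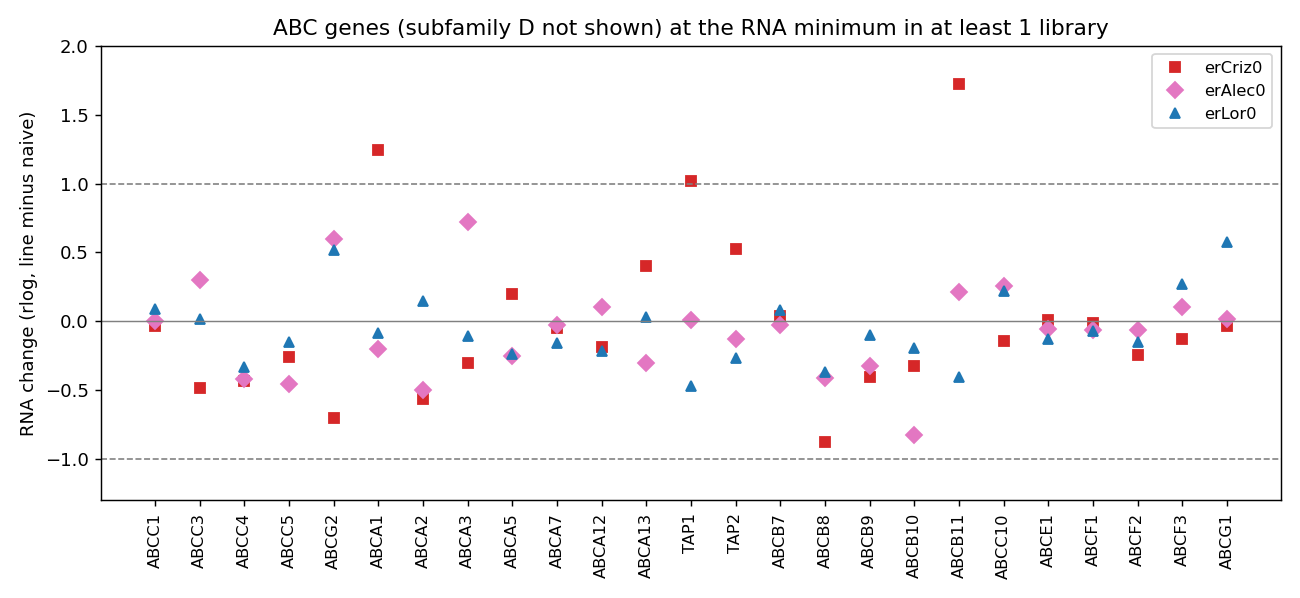
RNA change (rlog, line minus naive) of the 5 drug exporters and the other ABC genes of subfamilies A, B, C, E, F and G at the RNA minimum, with 1 symbol per resistant line and dashed lines at 1 and -1. Only ABCB11 (1.72), ABCA1 (1.24) and TAP1 (1.02) pass the limit, each in erCriz0, and ABCG2 has opposite signs in erCriz0 and the other lines.

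Genes that act with the exporters were listed as well. Of 9 regulators of efflux genes 7 reached the minimum and none passed the limit, and the largest change was in RXRA, the partner of the xenobiotic nuclear receptors, at -0.55, -0.86 and -0.78, while NR1I2 had no value. Among 5 membrane anchors MSN (moesin), which links membrane proteins to actin, rose by 1.01 in erCriz0 and 2.23 in erAlec0, from 7.13 in naive to 8.13 and 9.36, and was higher by 0.81 in erLor0. Of 11 glutathione genes 9 reached the minimum, and SLC7A11, the cystine importer, rose by 1.18 in erCriz0. Of 14 uptake carriers SLCO1B1 had no value and only 3 reached the minimum. Among these SLCO4A1 rose by 1.02 in erCriz0, a call lost under quantile normalisation, where its change was 0.93. Of the 8 listed cytochrome P450 and reductase genes 6 reached the minimum. CYP1A1 and CYP2S1 fell in erCriz0, by 1.0 and 1.04, and both calls were lost when the libraries were centred on their medians or quantile normalised. Over all expressed genes 2.65% rose and 1.65% fell in erCriz0, and 2.45% rose in erAlec0.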

How the data were processed

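RNA-seq and H3K27ac ChIP-seq of 4 H3122 lines were used, 1 library of each kind per line. The other samples of the 8 in the series were not analysed here. The authors deposited 1 table that pairs peaks with genes up to 20 kb away (295240 pairs), with values on a log2 scale, which they had computed from read counts with the DESeq2 rlog function. RNA reads from a MiSeq had been mapped on hg38 by HISAT2, with HTSeq-count for counting. ChIP-seq reads had been mapped on hg38 by BWA, and duplicates and alignments that were not unique or had a mapping quality under 25 were dropped. The authors then ran MACS2, merged the peaks over 4 samples, removed blacklisted regions and counted with featureCounts. Versions and the strand setting are not given in the sources used here. Columns with a correlation of peak and gene per pair and its p-values were also deposited and were not used. No per-sample column was left unmapped (0). Shrinkage by rlog understates the changes of weak features.

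Identifiers without version were matched to GENCODE release 44, which gave a symbol for 43641 of 43841 genes. Start coordinates were converted to count from 1. Changes were differences from naive, called at 1 on the log2 scale for genes, as in the study, and likewise for peaks. The RNA minimum was 25 normalised reads and the peak minimum 15, in at least 1 library. Peak counts and medians took all peaks unless the peak minimum is named. No test was run. The members, lists and settings were chosen with earlier results of these data known. All 7 members were named. Of each list, genes at the minimum with a change of 1 in any line were named, or else the gene with the largest change, apart from 1 result that is not reported here. For each member the longest peak, the start peak and the peaks of largest rise and fall were named, and further peaks were chosen after their values were seen. Genes with a pattern like a member's were to be named only where its RNA changed by 1, and no member's did. Alternatives were limits of 1.5-fold and 2, centring, quantile normalisation, a distance of 5 kb, peaks paired with 1 gene, filters, the mean, and a window of 2 Mb. The log2 ratio of summed signal was added after seeing the data. On simulated data all 200 planted changes among 12700 genes and all 200 among 86432 peaks were recovered, with 0 false calls. The planted changes were well above the limit and the simulated noise was small beside it. This recovery therefore checks the code and gives no error rate for the calls. Python 3.11.15, numpy 2.4.6, pandas 2.3.3 and matplotlib 3.10.9 were used.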

Additional observations from a re-analysis of the deposited data

Results flagged for a closer look

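ABCG2 was singled out because its RNA was below naive in erCriz0 (-0.70) and above it in erAlec0 (0.60) and erLor0 (0.52). Its median peak change likewise had opposite signs in erCriz0 (-0.50) and erAlec0 (0.93). ABCC3 RNA was lower than naive in erCriz0 (-0.48) and higher in erAlec0 (0.30). With 1 library per line these differences between lines were not tested.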

How the results depend on the processing

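No paired analysis was possible because each line has 1 library of each kind and the lines share no replicate numbers. With no replicates, a value was taken to have moved when it changed by more than 0.25 on the log2 scale, and a count when it changed by more than 1.5 times. Of 303 values under other settings for 87 results, 47 moved. A change of direction was recorded only for values of at least 1 in size. No RNA change or median peak change of a member reached 1, so none could be recorded. Signs of smaller values did change, as for the ABCB1 median in erCriz0, from 0.33 to -0.12 within 5 kb. All 36 other values for the RNA changes of single members, under centring or quantile normalisation, kept to that tolerance. Centring could not have moved them beyond it. The median rlog of expressed genes was 8.145 in naive cells and 8.09, 8.11 and 8.12 in erCriz0, erAlec0 and erLor0. The causes of the moved values were not tested. The stricter sets held fewer peaks, and the part of that in the moved values was not tested either.

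At a limit of 1.5-fold 1 exporter was lower in erCriz0 and 1 higher in erAlec0 (both ABCG2), 2 other ABC genes were lower in erCriz0, and in erAlec0 1 was higher and 2 lower. Member peaks then numbered 9 up against 65 down for erCriz0, 43 against 37 for erAlec0, and 15 against 32 for erLor0. The shares over all genes and all peaks were not computed at this limit or under the settings below. These counts therefore cannot be set against a background. Centring left 0 listed regulator, anchor, conjugation, uptake and P450 genes down in erCriz0, 8 member peaks down in erCriz0, and 8 up and 0 down in erLor0. Quantile normalisation also left 0 such genes down, and gave 0 member peaks up in erCriz0, 12 down in erAlec0 and 4 down in erLor0. Peaks paired with 1 gene, of which ABCB1 has none and ABCG2 has 5, left 0 up against 7 down for erCriz0, 3 against 3 for erAlec0, and 1 against 1 for erLor0. With them the ABCC1 median in erCriz0 was 0.36, over 2 peaks. That of ABCC2 was 0.00 in erCriz0 and 0.00 in erLor0, over 5 peaks. These ABCC2 peaks were all under the peak minimum and some were listed at 0 in every library, so the medians do not show an absence of change. Within 5 kb the ABCB1 median in erCriz0 was -0.12 and the ABCC2 median in erLor0 -0.30. With peaks at the minimum, medians were 0.78 for ABCB1 and 0.28 for ABCC1 in erCriz0, and 0.60 for ABCC5 in erLor0. A window of 2 Mb put ABCB1 in erCriz0 0.70 above its surroundings. The mean over ABCG2 peaks in erAlec0 was 1.19.

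The log2 ratio of summed signal, which weights strong peaks, was 0.75 in erCriz0 and 0.48 in erLor0 for ABCB1, 0.31 and 0.30 for ABCC1, and 0.037 in erCriz0 for ABCC4. For ABCC3 it was -0.24, -0.25 and -0.20 in the lines in the same order, nearer to naive than the medians. It was 1.36 in erAlec0 and 0.74 in erLor0 for ABCC5, and 1.60 in erAlec0 and 0.28 in erLor0 for ABCG2.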

Other observations

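RNA and H3K27ac were also set side by side for the other listed genes whose RNA passed the limit. SLC7A11 had RNA of 13.24 in naive cells and 14.43, 13.73 and 13.52 in erCriz0, erAlec0 and erLor0, and the medians of its 27 peaks were -0.42, -1.24 and -1.16. ABCB11 had medians of -0.36, -0.74 and -0.92 over 12 peaks beside RNA changes of 1.72, 0.21 and -0.41. The 5 CYP1A1 peaks had medians of -0.31, 1.13 and 0.61, beside RNA changes of -1.0, 0.17 and 0.56. MSN had 2 peaks, with medians of -0.08, -0.70 and -1.05 beside RNA changes of 1.01, 2.23 and 0.81. SLCO4A1, whose RNA changes were 1.02, 0.34 and -0.19, had medians of 0.12, -0.89 and -0.69 over 22 peaks. The 8 ABCA1 peaks had medians of 0.42, -0.15 and 0.21 beside RNA changes of 1.24, -0.20 and -0.08, and the 4 TAP1 peaks 0.45, 0.22 and 0.14 beside 1.02, 0.01 and -0.47. CYP2S1, with RNA changes of -1.04, -0.09 and 0.58, had medians of -0.49, -0.46 and -0.03 over 11 peaks. In erCriz0, where all 8 genes passed the limit, the median peak change had the sign of the RNA change for ABCA1, TAP1, SLCO4A1, CYP1A1 and CYP2S1, and the opposite sign for ABCB11, MSN and SLC7A11. These are values of single libraries and no relation between peaks and RNA was tested.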
